A study of Zea mays with 4 samples.

Results

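The genes described here were grouped by a rule as genes for enzymes at the start and the middle of starch synthesis in maize (Zea mays). They were measured in 2 inbred lines. They were taken from the annotation as 2 starch branching enzyme genes (sbe1 and ae1) and the genes named for ADP-glucose pyrophosphorylase or found under the names sh2, bt2 and wx1. AGP2 is counted with them by the rule alone, since its product is not given. The rule gave 8 of the 1108 genes that the annotation names, read by 10 of the 17621 probe sets other than controls. Each probe set of this Affymetrix array is made of short oligonucleotides that together read 1 transcript or cluster of transcripts. F98902, an inbred line that the labels call badly digestible, and Cm484, an inbred line called well digestible, had 2 arrays each. No plant of either line was treated. Plants stood in a greenhouse with days of 14 h at 22 °C and nights of 10 h at 20 °C, and RNA was taken in the flowering stage, 24 h ahead of ovulation. Each kind of digestibility is represented by a single line, so digestibility cannot be told apart from any other difference between F98902 and Cm484.

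Starch is built in plastids from ADP-glucose. ADP-glucose pyrophosphorylase (AGPase) makes this sugar nucleotide from glucose-1-phosphate and ATP and is made of large and small subunits, which in maize are encoded by separate genes used in endosperm, embryo and leaf. Starch synthases then lengthen glucan chains, and branching enzymes cut and rejoin them to make the branch points of amylopectin. Maize kernels with mutations in sh2 (large subunit) or bt2 (small subunit) are poor in starch, ae1 mutants have long, sparsely branched chains, and wx1 mutants lack amylose, because wx1 encodes the granule-bound starch synthase of the endosperm.

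Values are log2 signals after GCRMA, and a value of 5 or more was taken as detected. Between 54.8% and 55.2% of probe sets were detected on each array. The 2 F98902 arrays differed from each other in their control probe sets. Over 5 detected probe sets at the 5′ ends of housekeeping transcripts, the median difference from the mean of the other arrays was 0.86 (log2) on F98902 replicate 1 and -0.83 on F98902 replicate 2, against 0.26 and -0.22 on Cm484 replicates 1 and 2. Over 5 at the 3′ ends it lay between -0.13 and 0.12 on the 4 arrays. Added poly-A transcripts differed from the other arrays by -0.65 on F98902 replicate 1 and 1.20 on F98902 replicate 2, against -0.16 and -0.42 on Cm484 replicates 1 and 2. The labels give 120.7 ng of RNA for F98902 replicate 2 and 312.4 to 416.8 ng for the other 3 samples, and they name stem as the tissue in one protocol and root in another. Of 17 probe sets for fixed markers of green tissue, 13 or 14 were detected on each array, the single root marker probe set (zrp4) was detected on both Cm484 arrays and on neither F98902 array, and 3 of 30 seed marker probe sets were detected on each array, 1 of them named GLB1, which is also a haemoglobin name. In RNA from whole tissue, fewer cells of a type and less RNA per cell cannot be told apart. Probe sets read fixed sequences, and whether the 2 lines differ in those sequences was not tested. A lower signal in a line may therefore not be less RNA.

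The probe sets fell into those detected in both lines (sbe1, ae1, GLG1, AGP2 and Agpsemzm, 1 probe set each), 1 detected in F98902 alone (bt2), and 4 under the detection value on all 4 arrays (both of sh2, the one of wx1 and the second of ae1). The 6 probe sets with a detected value on at least 2 arrays were tested, and all 6 differed between the lines at an adjusted p under 0.05, 5 higher in F98902 and 1 lower. The share called among all 10131 probe sets tested was 34.9%, with 17.7% higher and 17.1% lower in F98902. In all 6 the arrays of the lines did not overlap, as in 72.0% of all probe sets tested. The genes were chosen with earlier results of these data known and bt2 passed the filter through F98902 alone, so the count of 6 is a description of this set. The 5 probe sets detected on all 4 arrays had a median log2 difference (F98902 minus Cm484) of 1.74, where the median of all probe sets tested was -0.02. These medians are likewise a description, because of the same choice of genes. They also rest on unlike filters, since all probe sets tested needed detection on at least 2 arrays only. Every adjusted p below is from limma with Benjamini-Hochberg adjustment over all probe sets tested, and every SE is that of the fit.

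**Figure D1:**
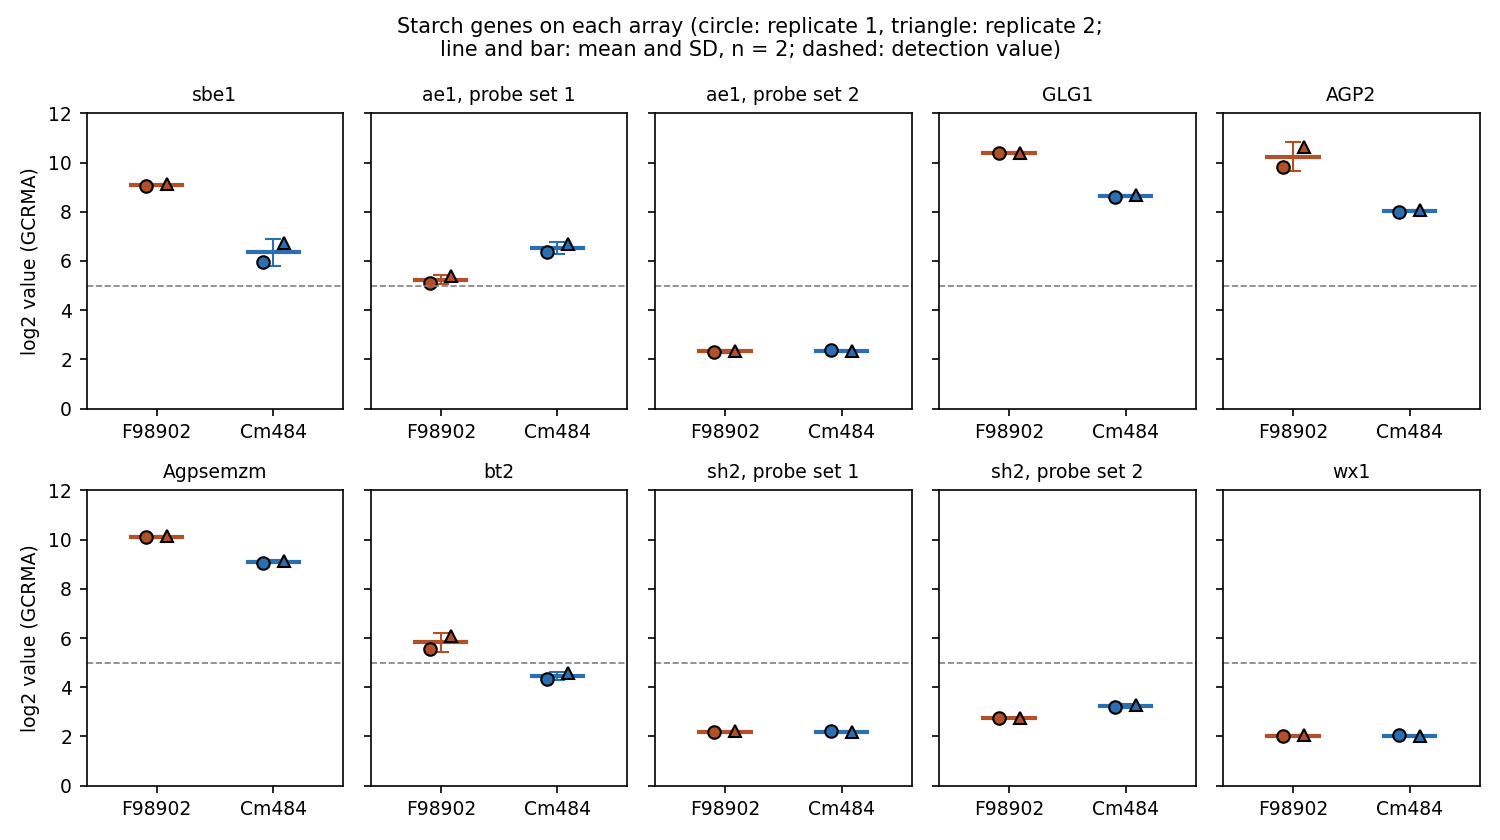
Log2 values of the 10 probe sets in the 2 F98902 arrays (left in each panel) and the 2 Cm484 arrays (right), with circles for replicate 1, triangles for replicate 2, lines for means and bars for the SD (n = 2). The dashed line marks the detection value of 5. sbe1, GLG1, AGP2, Agpsemzm and bt2 lie higher in F98902, ae1 lies lower with its first probe set, and the other 4 panels stay under the dashed line.

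The 2 branching enzyme genes differed in opposite directions. sbe1 (LOC542315), the gene of starch branching enzyme I, read 9.06 and 9.11 on F98902 replicates 1 and 2, against 5.95 and 6.74 on Cm484 replicates 1 and 2. Both F98902 arrays lay above both Cm484 arrays, with 2.32 log2 units between the nearest arrays of the 2 lines. The replicates of F98902 lay within 0.05 of each other, and those of Cm484 lay 0.79 apart. The log2 difference was 2.73 ± 0.28 (SE, n = 2 each, adjusted p = 0.00187 by limma), which is 6.66-fold higher in F98902 (95% interval 4.04 to 11.0). Of all probe sets tested, 6.67% had a larger difference in either direction.

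ae1 (LOC542238) encodes branching enzyme IIb, the form best known from the endosperm, and is read by 2 probe sets. The first read 5.10 and 5.38 on F98902 replicates 1 and 2, against 6.35 and 6.70 on Cm484 replicates 1 and 2. The F98902 arrays lay just above the detection value and below both Cm484 arrays, with a gap of 0.97. The log2 difference was -1.28 ± 0.20 (SE, n = 2 each, adjusted p = 0.0077 by limma), which is 2.43-fold higher in Cm484 (95% interval 1.70 to 3.49). The second ae1 probe set read 2.29 and 2.36 in F98902 against 2.37 and 2.33 in Cm484. It lay below detection on every array and its lines overlapped, so the ae1 difference rests on 1 of 2 probe sets. Both ae1 probe sets carry an ID suffix that was counted here as shared sequence, and each may read more than 1 transcript. Without such probe sets ae1 has no probe set in the comparison. The reference table gives SBE1 as a synonym of ae1 as well as sbe1 as a name of LOC542315, so the 2 genes are told apart here by their identifiers.

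Of the AGPase genes, as the rule counts them, GLG1, Agpsemzm and AGP2 were detected in both lines and read higher in F98902. bt2 was detected in F98902 alone, which fixes its direction, and sh2 was under the detection value in both lines. GLG1, for which the reference table also lists the name agpsl1 used for a leaf small subunit, read 10.37 and 10.40 on F98902 replicates 1 and 2, against 8.61 and 8.68 on Cm484 replicates 1 and 2. Replicates lay within 0.07 in each line, and the gap between the lines was 1.69. The log2 difference was 1.74 ± 0.15 (SE, n = 2 each, adjusted p = 0.000997 by limma), or 3.35-fold (95% interval 2.57 to 4.36).

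Agpsemzm (LOC542072), a name for an embryo small subunit, read 10.10 and 10.15 on F98902 replicates 1 and 2, against 9.05 and 9.13 on Cm484 replicates 1 and 2. Its replicates lay within 0.09 of each other in each line, and the gap between the lines was 0.96. The log2 difference was 1.03 ± 0.15 (SE, n = 2 each, adjusted p = 0.00601 by limma), or 2.04-fold (95% interval 1.56 to 2.67). Of all probe sets tested, 23.3% had a larger difference than Agpsemzm, against 12.5% for GLG1.

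AGP2 (LOC542737) carries a symbol shared by AGPase and arabinogalactan proteins, and Agp2 is also a synonym of LOC542072. The tables used here give no product for it, and it is counted as an AGPase gene by the rule alone. AGP2 read 9.82 and 10.65 on F98902 replicates 1 and 2, against 7.99 and 8.07 on Cm484 replicates 1 and 2. The F98902 replicates were 0.83 apart, and both lay at least 1.75 above Cm484. The log2 difference was 2.20 ± 0.30 (SE, n = 2 each, adjusted p = 0.00448 by limma), or 4.60-fold (95% interval 2.73 to 7.75). Without F98902 replicate 2 it was 1.79, still called.

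bt2 (LOC541902), the endosperm small subunit, had a weak signal. It read 5.54 and 6.10 on F98902 replicates 1 and 2, against 4.34 and 4.56 on Cm484 replicates 1 and 2. Both F98902 arrays were above the detection value and both Cm484 arrays below it, so the fold is a bound, at least 1.77-fold higher in F98902. The fit gave a log2 difference of 1.37 ± 0.24 (SE, n = 2 each, adjusted p = 0.0102 by limma) on the deposited values. Its call was lost without Cm484 replicate 1 (adjusted p = 0.057), where the difference was 1.26.

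**Figure D2:**
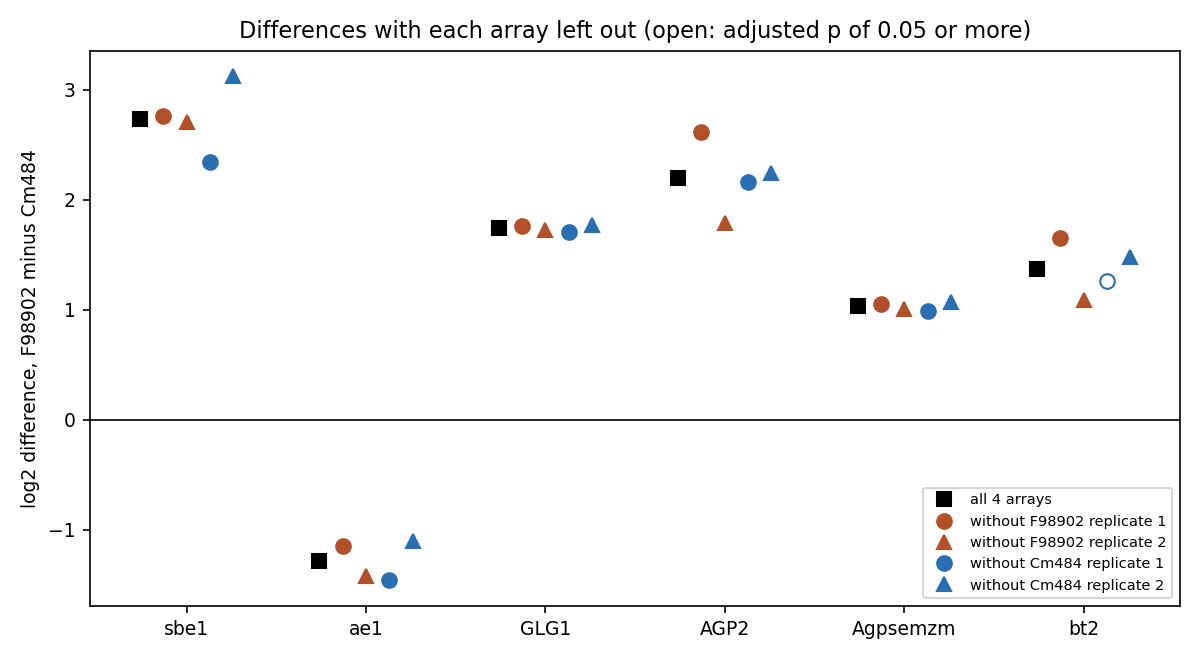
Log2 difference (F98902 minus Cm484) of the 6 probe sets tested, with all 4 arrays (squares) and with each array left out in turn. Filled symbols had an adjusted p under 0.05. Directions did not change with any array left out, sbe1 ranged from 2.34 to 3.13 and ae1 from -1.46 to -1.10, and the 1 open symbol is bt2 without Cm484 replicate 1.

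The endosperm large subunit gene and the amylose gene gave no signal that could be compared. sh2 (LOC542761) read 2.16 and 2.21 in F98902 against 2.21 and 2.16 in Cm484 with its first probe set, and 2.74 and 2.75 in F98902 against 3.19 and 3.29 in Cm484 with its second. wx1 (LOC541854) read 2.01 and 2.04 in F98902 against 2.05 and 2.01 in Cm484. The lines overlapped for wx1 and for the first sh2 probe set. The second sh2 probe set differed by -0.49 (log2, F98902 minus Cm484) with no overlap, but entirely under the detection value, so no fold is given.

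Set among themselves, the differences of the probe sets had different precision. The 95% intervals of the log2 difference ran from 2.01 to 3.46 for sbe1, from 1.45 to 2.96 for AGP2, from 1.36 to 2.13 for GLG1 and from 0.64 to 1.42 for Agpsemzm. The intervals of sbe1, AGP2 and GLG1 overlap one another. The interval of Agpsemzm overlaps that of GLG1 but not those of sbe1 and AGP2, and no order among these differences was tested. The interval of ae1, from -1.80 to -0.77, lies wholly below 0. No interval is set beside these for bt2, whose difference is a bound.

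**Figure D3:**
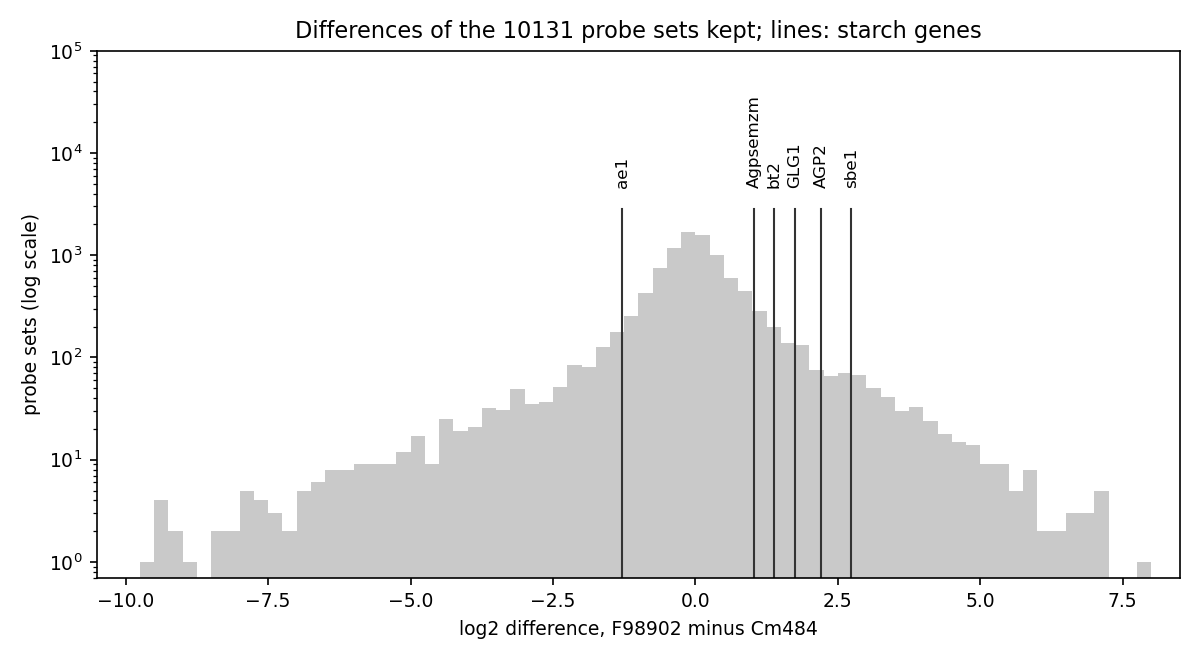
Number of probe sets, on a log scale, by log2 difference (F98902 minus Cm484) for the 10131 probe sets tested. Lines mark the 6 starch probe sets. They lie on the shoulders of the distribution, ae1 at -1.28 on the left and the other 5 between 1.03 and 2.73 on the right, inside the range of all probe sets.

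Other names used for genes of starch synthesis, starch breakdown and plastid sugar transport were matched. They also took in sus1, a sucrose synthase gene, by an older name. The matches gave 17 probe sets for 15 genes, of which 10 (8 genes) were tested. Of these, 3 were higher in F98902, 0 were lower and 7 were not called, with a median log2 difference of 0.26, and this share of calls is near the 34.9% of all probe sets tested. The calls, from 2 genes, were both probe sets of TPT (LOC542473), the triose phosphate translocator of the plastid envelope, and the 1 probe set of phi1 (LOC542313), a hexose phosphate isomerase. The first TPT probe set read 11.73 and 11.52 in F98902 against 9.84 and 9.95 in Cm484, a log2 difference of 1.73 ± 0.17 (SE, adjusted p = 0.00142). Its second probe set read 12.34 and 12.67 in F98902 against 10.79 and 11.04 in Cm484 and differed by 1.59 ± 0.20 (SE, adjusted p = 0.00332). For phi1 the values were 11.18 and 11.15 in F98902 against 10.64 and 10.42 in Cm484, a log2 difference of 0.64 ± 0.16 (SE, adjusted p = 0.0353), and this call was lost with any 1 array left out.

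The starch synthases that were detected did not pass the test. ss1 (LOC541669), the soluble starch synthase I gene, read 7.79 and 7.85 in F98902 against 7.27 and 7.99 in Cm484, with overlapping lines and a log2 difference of 0.19 (95% interval -0.49 to 0.87, adjusted p = 0.623). zSSIIb (LOC541656), a starch synthase II gene, read 5.63 and 6.11 in F98902 against 5.02 and 5.49 in Cm484, a log2 difference of 0.62 (95% interval -0.03 to 1.27, adjusted p = 0.124). The isoamylase gene iso2 (LOC542679), of the debranching enzymes, gave 0.34 (95% interval -0.22 to 0.89, adjusted p = 0.29) from values between 4.92 and 5.62. These intervals leave room for differences of about the size seen for Agpsemzm in zSSIIb, but not for that of GLG1 in any of the 3.

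Among the translocators that carry sugar phosphates or phosphoenolpyruvate across the plastid envelope, TPT alone was called. The glucose-6-phosphate translocator gene gpt (LOC542599) gave log2 differences of -0.32 (95% interval -0.80 to 0.16, adjusted p = 0.255) and -0.20 (95% interval -0.63 to 0.22, adjusted p = 0.401) from its 2 probe sets. The phosphoenolpyruvate translocator gene ppt1 (LOC100037776) gave -0.06 (adjusted p = 0.843). sus1 (LOC542247) entered the list through its older name ss2 and is a sucrose synthase gene, with -0.11 (adjusted p = 0.633). None of the gpt, ppt1 and sus1 differences exceeded 0.32 in size.

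Of the 7 probe sets of this list that were not tested, 6 were under the detection value on all 4 arrays. They stood for the ADP-glucose transporter gene bt1, the starch synthase genes du1 and sugary2, the debranching enzyme genes zpu1 and iso3, and GBSSIIa (LOC100125638), a granule-bound starch synthase gene. GBSSIIa read 3.83 and 3.96 in F98902 against 4.58 and 4.86 in Cm484. The seventh was LOC542472, which carries alpha- and beta-amylase names (Amy2 and BMY1). It read 2.30 and 2.41 in F98902 against 4.87 and 5.78 in Cm484. LOC542472 missed the filter because a single array was above 5, so no fold is given.

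**Figure D4:**
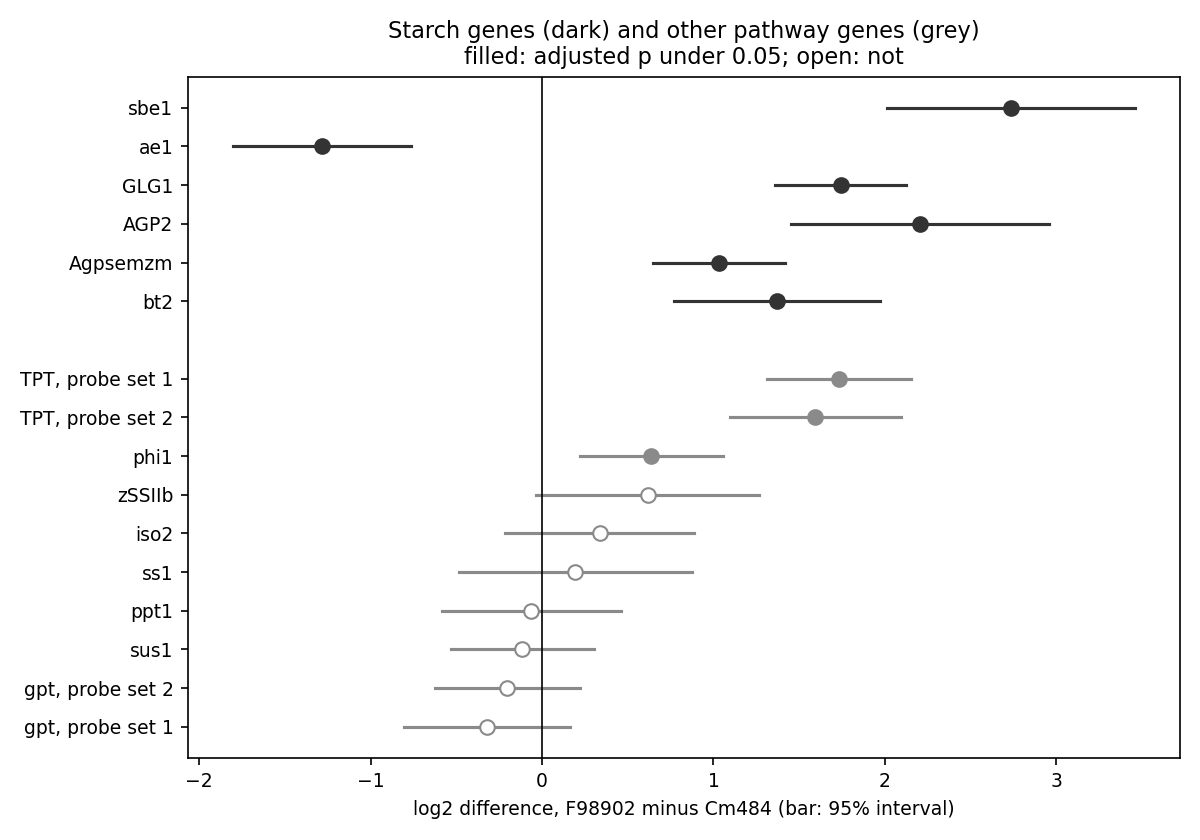
Log2 difference (F98902 minus Cm484) with its 95% interval for the 6 starch probe sets tested (dark) and the 10 tested probe sets of other pathway genes (grey). Filled points had an adjusted p under 0.05. bt2 was below detection in Cm484, so its point and bar are fitted to values that give only a bound. The called pathway points are the 2 of TPT and phi1, and the 7 open points lie between -0.32 and 0.62.

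Some markers of green tissue were also higher in F98902. Of 13 green tissue probe sets tested (8 genes), 8 were higher, 1 was lower and 4 were not called, with a median log2 difference of 1.32. Among all probe sets tested, 17.7% were higher and 17.1% lower in F98902, with a median of -0.02. The 8 higher green tissue probe sets stood for 4 genes, with 3 probe sets each of PPDK and the light-harvesting gene CP24, so 2 genes weigh heavily in the median. Another PPDK probe set gave 0.01, lhcb5 was lower in F98902 (-0.94, adjusted p = 0.0167), and rbcS, psaN and pep were not called. Their summed level on a linear scale, over all 17 probe sets, was 32980 to 33848 on the F98902 arrays and 15385 to 18665 on the Cm484 arrays. Of the 30 seed marker probe sets, 0 of the 3 tested were called by limma. The summed level of all 30 was 1084 to 1512 in F98902 and 1149 to 1295 in Cm484. This sum includes GLB1, also a haemoglobin name, which read 9.18 and 7.56 on F98902 replicates 1 and 2, against 7.61 and 7.59 in Cm484. The sum also includes meg6, the highest of the 30 on each array, with 9.48 and 9.37 in F98902 against 9.53 and 9.83 in Cm484. A further member of the sum is fl1, a gene listed as LEAFY-like too. The part of green tissue in the differences of the starch genes was not tested.

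The named genes with the closest patterns over the 4 arrays were found by the root mean square distance between log2 values after centring each probe set on its mean, over 773 probe sets of other named genes. This likeness is a description over 4 arrays in 2 lines and carries no test. sbe1 lay closest to zmCL2-2 (LOC542653, distance 0.10, log2 difference 2.61) and then to thi1 (LOC542714, distance 0.14, log2 difference 2.54), a gene of thiamine synthesis. ae1 lay closest to the ferritin gene fer1 (LOC542553, distance 0.03, log2 difference -1.31) and the MADS-box gene zap1 (LOC542257, distance 0.05, log2 difference -1.20). fer1 read 9.13 and 9.43 in F98902 against 10.37 and 10.81 in Cm484, a separation that follows from choosing it by likeness to ae1. GLG1 was nearest to L-FNRII (LOC541626, distance 0.04, log2 difference 1.72), named for a leaf ferredoxin-NADP reductase of photosynthetic electron transport, and to the chalcone synthase gene chs1 (LOC541645, distance 0.05, log2 difference 1.75).

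The other 3 genes had their own nearest genes. AGP2 lay nearest to the cytokinin response regulator gene crr1 (LOC541613, distance 0.11) and the small heat shock protein gene HSP18 (LOC542293, distance 0.13). HSP18 read 7.24 and 7.94 on F98902 replicates 1 and 2, an order that its choice by likeness to AGP2 favours. Agpsemzm lay nearest to Smh5 (LOC542124, distance 0.02), a single-Myb-histone name, and met2 (distance 0.03). bt2 lay nearest to Ij (LOC542470, distance 0.09), the iojap gene known for leaf striping when mutated, and the protein kinase name pk4 (LOC541785, distance 0.10). No gene was nearest to more than 1 of the starch genes among the 2 closest to each.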

How the data were processed

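RNA of 2 F98902 and 2 Cm484 samples was hybridised to the Affymetrix Maize Genome array. Per the submitters' processing notes, the authors made the deposited log2 values with GCRMA in R 2.6.2, a method that models background from probe sequence, aligns the arrays by quantiles and gives 1 value per probe set. Further steps: not given in the sources used here. Precision is limited by the number of arrays. Whether replicates were separate plants is not said in the labels, so a p-value reflects the spread of these samples alone, which may be technical.

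Probe sets were named from the platform's annotation, updated by gene identifier through RefSeq's table for Zm-B73-REFERENCE-NAM-5.0. The annotation gave 1 gene to 1452 of the 17734 probe sets, several genes to 1 and no gene to 16281, and 113 control probe sets were left out. Of 1108 named genes, 1060 were in that table. No genome was used, so no coordinates or sequences are given.

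Probe sets at or above 5 (log2) on at least 2 arrays were kept, which left 10131. Differences, F98902 minus Cm484, were fitted without covariates in limma 3.58.1 (R 4.3.3; lmFit, then eBayes) and tested two-sided with Benjamini-Hochberg adjustment. Where both arrays of a line were under 5, the fold is a bound, the other line's mean over 5. The fit was checked on simulated data. Named genes were every member, every tested probe set of the pathway list and the 2 closest genes to each member. LOC542472, GBSSIIa and the other untested probe sets of the list were named after their values were seen. Members, lists and rules were chosen with earlier results of these data known. Same-numbered arrays of the lines did not deviate together (r = -0.02 over probe sets), and the labels give no pairing. Alternatives changed the filter, normalization, variance model, probe sets of shared sequence, replicate block and left-out arrays.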

Additional observations from a re-analysis of the deposited data

How the results depend on the processing

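Of the 6 starch probe sets tested, none changed direction in any of the 12 alternatives, save that ae1 was not present without probe sets of shared sequence and bt2 not with a detection value of 6. The 1 call lost was that of bt2 without Cm484 replicate 1; leaving out each array in turn gave bt2 differences of 1.09 to 1.65. The member calls numbered 5 or 6 with any array left out and 7 with no filter on low values, the added one being the second sh2 probe set (-0.49, adjusted p = 0.0301), which is below detection on all arrays. All probe sets called numbered 2205 to 2706 with an array left out. The other pathway calls were 5 with no filter, the added ones being LOC542472 (Amy2, adjusted p = 0.0228) and GBSSIIa (adjusted p = 0.0369), both lower in F98902, and 2 with any array left out. The uncalled differences of ppt1 (-0.29 to 0.17) and ss1 (-0.17 to 0.55) turned sign with an array left out, ppt1 without F98902 replicate 2 and ss1 without Cm484 replicate 1. The replicate block gave 2983 calls, 6 of them among the starch genes and 2 in the pathway list, where phi1 was not called (adjusted p = 0.0646), and phi1 was also lost with each array centred on its median (adjusted p = 0.0559). The causes of these changes were not tested. Centring on the median turned the split of all calls to 1713 higher and 1925 lower in F98902, against 1797 and 1736 in the main comparison. ae1, bt2, iso2 and zSSIIb had values near the chosen detection value of 5, which limits what they show.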
